A study of Mus musculus with 15 samples.

Results

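Interferon-induced genes are the receptors, signalling factors and antiviral proteins through which cells make and answer interferons. They were followed here in the cortex of a mouse strain that ages early, with and without exercise. The set was chosen by name, with earlier results of these data known. It named 42 genes of the interferon receptors, the transcription factors of the pathway and the induced antiviral genes. Each was measured by every array feature that carries its symbol alone. Of these, 40 were measured, through 60 features, among 16401 genes in all. Mx1 and Ifi44 are not analysed here. Of the measured genes, 24 had 1 feature, 12 had 2 and 4 had 3, and each gene is represented by its brightest feature unless stated.

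Total RNA of whole cortex from adult female mice was hybridised to 15 one-colour arrays in 3 groups of 5. The groups were SAMP8 mice that had exercised (replicates 11 to 15), sedentary SAMP8 mice (replicates 6 to 10) and sedentary SAMR1 mice (replicates 1 to 5). SAMP8 mice belong to a senescence-accelerated inbred line whose learning and memory fail early in life. SAMR1, a related line that ages normally, was the control. No exercised SAMR1 group was in the series, so exercise could be assessed in SAMP8 only, and the labels do not state the kind or length of the exercise. Arrays are numbered as biological replicates in the labels, which do not say how many animals went into each, so p-values measure the spread between these samples. Neuron, astrocyte and oligodendrocyte markers were all above the median intensity on every array (11 of 11, 9 of 9 and 8 of 8 measured).

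Type I interferons are secreted when a cell senses foreign or misplaced nucleic acid. They bind a receptor of 2 chains, Ifnar1 and Ifnar2, and a complex that holds Stat2 and Irf9 then enters the nucleus and switches on genes whose promoters carry interferon-stimulated response elements. The products include sensors of RNA and DNA, enzymes that block translation or degrade RNA, and membrane proteins that hold viruses back. In the brain, microglia, border macrophages, vessels and neurons can all respond.

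Values are log2 of the deposited intensity, where a difference of 1 is a 2-fold change. Each difference is given with its standard error from limma, a linear model fitted across all genes and all 15 arrays, with p-values adjusted by Benjamini-Hochberg over the 16401 genes and a threshold of 0.05. In whole tissue, fewer cells of a type and less RNA per cell cannot be told apart. Over all genes, arrays correlated at 0.9765 to 0.991 with each other. The lower quartile of log2 intensity was 6.17 and the median 7.70, and values under the lower quartile are close to an unknown floor.

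A number of sensors and antiviral effectors of the interferon response were higher in SAMP8 than in SAMR1 cortex. Read from the brightest feature, 0 of 2 receptor chains and 0 of 6 transcription factors passed the test. These are too few genes to set apart from the rest. The factor Irf7 differed by 0.48 between the sedentary strains without passing, where Dhx58 and Ifi27 passed at 0.40 each. In sedentary SAMP8 against sedentary SAMR1, 11 of the 40 members were higher, 0 were lower and the other 29 did not pass, where 1.85% of all genes rose and 1.18% fell. The members were chosen with earlier results of these data known, so such shares describe the set and do not test it. The members that rose were Ifi27l2a, Eif2ak2, Oasl2, Lgals3bp, Bst2, Usp18, Oas1a, Ifi204, Parp14, Dhx58 and Ifi27. The difference was positive in 33 members and negative in 7, and the median over the 40 was 0.33, against 0.02 over all genes. In 15 members every sedentary SAMP8 array lay above every sedentary SAMR1 array, a pattern seen in 2.92% of all genes. The opposite, seen in 1.65% of all genes, occurred in 0 members. The 4 non-overlapping members that did not pass were Oas2, Isg15, Rsad2 and Ifi35.

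In exercised SAMP8 against sedentary SAMR1, 10 members were higher, 0 lower and 30 not passed, where 2.8% of all genes rose and 1.45% fell. Of the 12 members called in either comparison, 9 were called in both: Bst2 and Ifi27 passed in sedentary SAMP8 alone and Ifit1 in exercised SAMP8 alone. The median over the 40 members was 0.33, against 0.04 over all genes, with 31 positive and 9 negative. In 11 members the exercised SAMP8 arrays all lay above the SAMR1 arrays (3.96% of all genes), and 0 lay wholly below (1.84% of all genes). These 11 were Dhx58, Eif2ak2, Ifi204, Oas1a, Oasl2, Ifitm2, Ifi27, Ifi27l2a, Bst2, Lgals3bp and Parp14. Both strain comparisons use the same 5 SAMR1 arrays, so the second is not a separate test of the first.

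**Figure D1:**
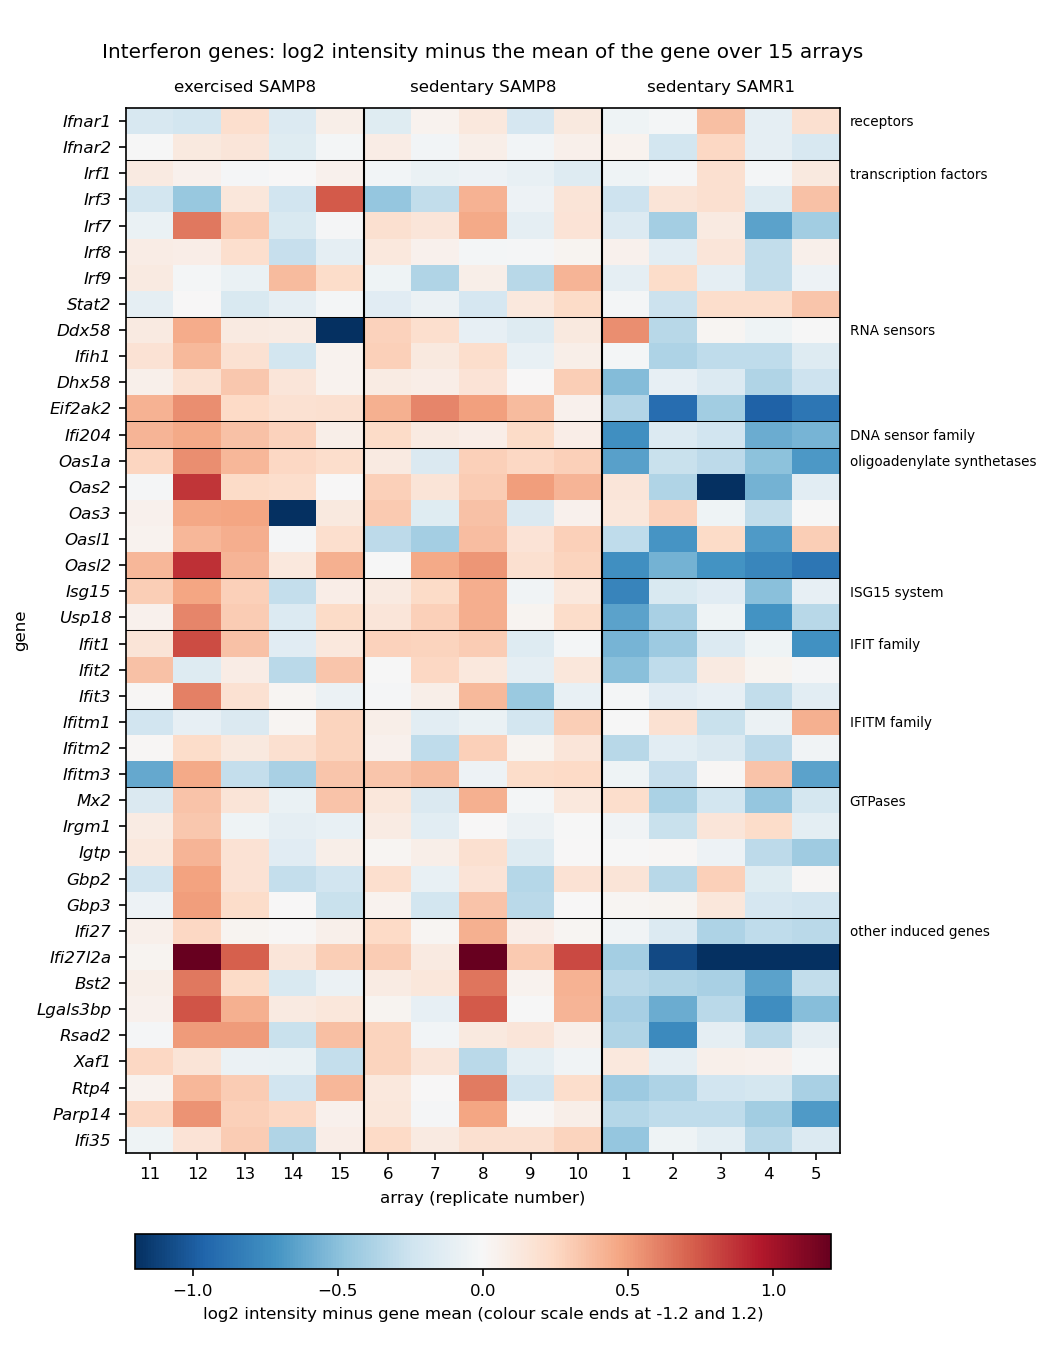
Each row is 1 of the 40 measured members, grouped by role, and each column 1 array, with exercised SAMP8 at the left, sedentary SAMP8 in the middle and sedentary SAMR1 at the right. Colour shows log2 intensity minus the mean of that gene over the 15 arrays, ending at -1.2 and 1.2. The SAMR1 columns are blue for Eif2ak2, Oas1a, Oasl2, Ifi27l2a, Bst2, Lgals3bp and Parp14, and exercised SAMP8 replicate 12 and sedentary SAMP8 replicate 8 are the reddest columns.

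Promoters were searched for the elements through which interferon signals reach genes. RefSeq promoters (build GRCm38.p6, 250 bases before to 50 bases after the gene start) were on hand for 31 of the 40 measured members. The core of the interferon-stimulated response element, spelled GAAA, any 2 bases, GAAA, was looked for on both strands. It occurred in 17 of 31 members (54.8%) and in 3.99% of 27025 genes with an entry. Among members that rose between the sedentary strains it was in 3 of 5 with an entry (Bst2, Eif2ak2 and Oas1a; not in Oasl2 or Lgals3bp), and among the other members in 14 of 26. The gamma-activated site, spelled TTC, any 3 bases, GAA, occurred in 11 of 31 members (35.5%) and in 9.55% of all genes. It was in 3 of the same 5 members that rose (Bst2, Eif2ak2 and Oas1a) and in 8 of the 26 others. The stretches of the 3 promoters are shown because they hold the element in genes that rose, on the gene's own strand and with the matches in capitals. A match is a description of these letters and not a measured binding site.
Bst2: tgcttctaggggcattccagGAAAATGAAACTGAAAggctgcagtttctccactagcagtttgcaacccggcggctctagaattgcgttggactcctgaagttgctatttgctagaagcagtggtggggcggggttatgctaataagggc
Eif2ak2: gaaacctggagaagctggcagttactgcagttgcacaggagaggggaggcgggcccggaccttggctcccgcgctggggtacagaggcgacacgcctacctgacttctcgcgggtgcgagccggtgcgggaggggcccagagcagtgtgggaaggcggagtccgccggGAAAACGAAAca
Oas1a: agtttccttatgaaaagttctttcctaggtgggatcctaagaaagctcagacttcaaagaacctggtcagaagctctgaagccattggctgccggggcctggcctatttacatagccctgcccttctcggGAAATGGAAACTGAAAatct
The Bst2 stretch is chr8:71537473-71537622, minus strand, and ends at the base before the gene start. Its capitals are 2 overlapping matches, which begin 130 and 124 bases before the start, and a gamma-activated match overlaps the first of them. The Eif2ak2 stretch is chr17:78882543-78882722, minus strand, and runs from 150 bases before the start to base 30 of the transcript, with the match at bases 19 to 28. The Oas1a stretch is chr5:120907526-120907675, minus strand, and its 2 overlapping matches begin 20 and 14 bases before the start, the second ending 5 bases before it. It also holds a gamma-activated match further upstream, left in lower case, while that of Eif2ak2 lies outside the printed stretch.

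Neither chain of the interferon receptor passed the test. Ifnar1 read 8.91, 8.88, 9.30, 8.94 and 9.16 on the exercised SAMP8 arrays, 8.95, 9.14, 9.22, 8.90 and 9.21 on the sedentary SAMP8 arrays and 9.05, 9.07, 9.46, 8.99 and 9.29 on the sedentary SAMR1 arrays. Its differences from SAMR1 were -0.09 ± 0.11 for sedentary SAMP8 (adjusted p = 0.794) and -0.13 ± 0.11 for exercised SAMP8 (adjusted p = 0.591). Ifnar2 had 9.28, 9.39, 9.42, 9.13 and 9.25 on the exercised SAMP8 arrays, 9.36, 9.25, 9.35, 9.24 and 9.34 on the sedentary SAMP8 arrays and 9.32, 9.06, 9.52, 9.17 and 9.08 on the sedentary SAMR1 arrays. Its strain differences were 0.08 ± 0.09 for sedentary SAMP8 (95% interval -0.12 to 0.27, adjusted p = 0.77) and 0.07 ± 0.09 for exercised SAMP8 (adjusted p = 0.781). The ranges of the 3 groups overlapped for both chains, and the second Ifnar2 feature gave -0.08 and -0.17 for the same comparisons, neither past the threshold.

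Of the 6 transcription factors, 0 passed in a strain comparison when each was read from its brightest feature. Over all 16401 genes, 2345 had an unadjusted limma p under 0.05 in sedentary and 2984 in exercised SAMP8 against SAMR1. Among the 6 factors, 1 did in each comparison. That was Irf7, which amplifies the interferon response and is itself induced by it. Irf7 read 6.15, 6.86, 6.55, 6.05 and 6.22 on the exercised SAMP8 arrays, 6.43, 6.38, 6.69, 6.13 and 6.40 on the sedentary SAMP8 arrays and 6.07, 5.83, 6.34, 5.59 and 5.82 on the sedentary SAMR1 arrays. The highest 2 values were exercised SAMP8 replicate 12 and sedentary SAMP8 replicate 8, and the SAMR1 range overlapped both SAMP8 ranges. The differences were 0.48 ± 0.17 between sedentary SAMP8 and sedentary SAMR1 (1.39-fold, adjusted p = 0.18) and 0.44 ± 0.17 between exercised SAMP8 and sedentary SAMR1 (1.36-fold, adjusted p = 0.167), and Irf7 lay under the lower quartile on 2 exercised SAMP8 arrays, 1 sedentary SAMP8 array and 4 SAMR1 arrays.

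Irf9 and Stat2, partners in the complex that carries the receptor's signal, gave 0.02 ± 0.14 and -0.11 ± 0.11 between the sedentary strains (adjusted p = 0.97 and 0.73). Against SAMR1, exercised SAMP8 differed by 0.19 ± 0.14 for Irf9 and -0.18 ± 0.11 for Stat2 (adjusted p = 0.541 and 0.436). Irf9 read 8.27, 8.14, 8.09, 8.54 and 8.39 on the exercised SAMP8 arrays, 8.12, 7.81, 8.24, 7.84 and 8.58 on the sedentary SAMP8 arrays and 8.06, 8.39, 8.06, 7.87 and 8.11 on the sedentary SAMR1 arrays. Stat2 read 9.35, 9.47, 9.28, 9.35 and 9.43 on the exercised SAMP8 arrays, 9.32, 9.39, 9.26, 9.59 and 9.69 on the sedentary SAMP8 arrays and 9.44, 9.21, 9.67, 9.67 and 9.79 on the sedentary SAMR1 arrays. The 3 groups overlapped in both genes. Irf8, a factor of microglia and other myeloid cells, lay at 8.71, 8.71, 8.83, 8.35 and 8.52 on the exercised SAMP8 arrays, 8.76, 8.67, 8.60, 8.61 and 8.66 on the sedentary SAMP8 arrays and 8.68, 8.50, 8.78, 8.33 and 8.69 on the sedentary SAMR1 arrays, again with overlapping groups. It differed from SAMR1 by 0.07 ± 0.10 in sedentary SAMP8 and 0.03 ± 0.10 in exercised SAMP8 (adjusted p = 0.833 and 0.917). The dimmer Irf8 feature, fitted on its own with limma, gave 0.32 ± 0.11 and 0.25 ± 0.11 (adjusted p = 0.161 and 0.219). In that feature every sedentary SAMP8 array lay above every SAMR1 array, while the exercised arrays overlapped SAMR1. Irf1, an early factor of the gamma interferon response, read 9.73, 9.68, 9.60, 9.63 and 9.67 on the exercised SAMP8 arrays, 9.59, 9.55, 9.56, 9.53 and 9.46 on the sedentary SAMP8 arrays and 9.57, 9.61, 9.81, 9.60 and 9.74 on the sedentary SAMR1 arrays. The SAMR1 arrays overlapped both SAMP8 groups. Its strain differences were -0.13 ± 0.06 and -0.01 ± 0.06 (adjusted p = 0.388 and 0.98) for sedentary and exercised SAMP8.

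Irf3, which sits below the nucleic acid sensors and starts interferon production, was read differently by its 2 features. The brighter one read 10.36, 10.12, 10.71, 10.34 and 11.31 on the exercised SAMP8 arrays, 10.11, 10.28, 10.99, 10.51 and 10.73 on the sedentary SAMP8 arrays and 10.33, 10.73, 10.76, 10.42 and 10.92 on the sedentary SAMR1 arrays. Its groups overlapped, with differences from SAMR1 of -0.11 ± 0.21 for sedentary and -0.07 ± 0.21 for exercised SAMP8 (adjusted p = 0.872 and 0.917). The dimmer feature, annotated to another transcript record, averaged 7.05 ± 0.19 in exercised SAMP8, 7.04 ± 0.34 in sedentary SAMP8 and 7.75 ± 0.18 in SAMR1 (SD, n = 5 each). It read 6.96, 6.83, 7.01, 7.35 and 7.09 in exercised SAMP8, 6.82, 6.61, 7.29, 7.03 and 7.45 in sedentary SAMP8, and 7.67, 7.61, 7.67, 7.71 and 8.06 in SAMR1. No SAMP8 array reached the SAMR1 range. When each of 27968 features was fitted on its own with limma, it fell by 0.71 ± 0.15 in sedentary SAMP8 (adjusted p = 0.0177) and by 0.70 ± 0.15 in exercised SAMP8 (adjusted p = 0.017). In that fit 1.14% of features were lower and 1.64% higher in sedentary SAMP8, and 1.41% lower and 2.04% higher in exercised SAMP8. It was the 1 member feature that fell.

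Eif2ak2 and Dhx58 rose among the 4 RNA sensors, and Ddx58 and Ifih1 did not pass. Eif2ak2, the kinase PKR that stops translation when it binds double-stranded RNA, read 7.55, 7.69, 7.37, 7.32 and 7.33 on the exercised SAMP8 arrays, 7.56, 7.72, 7.62, 7.51 and 7.18 on the sedentary SAMP8 arrays and 6.78, 6.22, 6.71, 6.16 and 6.26 on the sedentary SAMR1 arrays. Every SAMP8 array, exercised or sedentary, lay above every SAMR1 array. The differences were 1.09 ± 0.14 between sedentary SAMP8 and sedentary SAMR1 (2.13-fold, adjusted p = 0.000175) and 1.02 ± 0.14 between exercised SAMP8 and sedentary SAMR1 (2.03-fold, adjusted p = 0.00031). Dhx58, a helicase that modulates the other RNA sensors, had values of 6.51, 6.63, 6.77, 6.59 and 6.49 on the exercised SAMP8 arrays, 6.54, 6.53, 6.61, 6.45 and 6.74 on the sedentary SAMP8 arrays and 5.93, 6.35, 6.28, 6.09 and 6.20 on the sedentary SAMR1 arrays. Here too no SAMP8 array reached down to the SAMR1 range, though 2 SAMR1 arrays lay under the lower quartile. Dhx58 differed by 0.40 ± 0.09 between sedentary SAMP8 and sedentary SAMR1 (1.32-fold, adjusted p = 0.0207) and 0.43 ± 0.09 between exercised SAMP8 and sedentary SAMR1 (1.35-fold, adjusted p = 0.0126). Its call between the sedentary strains ended without sedentary SAMP8 replicate 8 (0.40, 0.0523), sedentary SAMP8 replicate 10 (0.36, 0.0546) or sedentary SAMR1 replicate 4 (0.38, 0.0588), each with the difference and adjusted p in parentheses. It also ended with a trended and robust prior (adjusted p = 0.0782), with the 2 groups fitted alone (adjusted p = 0.0564) and with 50 added to each intensity (difference 0.25).

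Ifih1, a sensor of long double-stranded RNA, read 7.53, 7.74, 7.53, 7.13 and 7.39 on the exercised SAMP8 arrays, 7.63, 7.47, 7.55, 7.26 and 7.41 on the sedentary SAMP8 arrays and 7.32, 6.97, 7.04, 7.05 and 7.20 on the sedentary SAMR1 arrays. Most SAMR1 arrays were below most SAMP8 arrays but the ranges overlapped. The differences of 0.35 ± 0.11 between sedentary SAMP8 and sedentary SAMR1 (1.27-fold, adjusted p = 0.127) and 0.35 ± 0.11 between exercised SAMP8 and sedentary SAMR1 (1.27-fold, adjusted p = 0.0963) did not pass, except that the second one passed without exercised SAMP8 replicate 14 (0.43, 0.0281). Its other, dimmer feature gave -0.21 and 0.55 for sedentary and exercised SAMP8 against SAMR1. Ddx58, which encodes the RNA helicase RIG-I, gave 0.03 ± 0.26 and -0.15 ± 0.26 in the same comparisons, with 1 exercised array far below the others.

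Ifi204, a member of the interferon-inducible family that senses DNA in the nucleus and cytosol, read 6.48, 6.53, 6.43, 6.35 and 6.14 on the exercised SAMP8 arrays, 6.30, 6.18, 6.15, 6.30 and 6.15 on the sedentary SAMP8 arrays and 5.34, 5.91, 5.85, 5.48 and 5.52 on the sedentary SAMR1 arrays. All SAMR1 values were under the lower quartile and below every SAMP8 value, while 1 exercised and 2 sedentary SAMP8 values were under it as well. The differences were 0.60 ± 0.11 between sedentary SAMP8 and sedentary SAMR1 (1.52-fold, adjusted p = 0.00526) and 0.77 ± 0.11 between exercised SAMP8 and sedentary SAMR1 (1.7-fold, adjusted p = 0.000602). Its dimmer features gave 0.48 and -0.37 between the sedentary strains and 0.44 and -0.08 for exercised SAMP8. With the mean of the 3 features neither call remained (0.24, adjusted p = 0.442, and 0.38, adjusted p = 0.144). The family's members are alike in sequence, and a feature may not tell them apart.

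The 5 oligoadenylate synthetase genes lie on chromosome 5. The active enzymes make the second messenger that switches on RNase L. Oas1a and Oasl2 rose in both strain comparisons. Oasl2 read 7.72, 8.19, 7.72, 7.44 and 7.74 on the exercised SAMP8 arrays, 7.30, 7.77, 7.85, 7.50 and 7.58 on the sedentary SAMP8 arrays and 6.58, 6.75, 6.60, 6.53 and 6.44 on the sedentary SAMR1 arrays. Its lowest SAMP8 value was above its highest SAMR1 value by a wide margin. The differences were 1.02 ± 0.13 between sedentary SAMP8 and sedentary SAMR1 (2.03-fold, adjusted p = 0.000185) and 1.18 ± 0.13 between exercised SAMP8 and sedentary SAMR1 (2.27-fold, adjusted p = 4.78e-05). Oas1a had 6.75, 7.05, 6.88, 6.74 and 6.70 on the exercised SAMP8 arrays, 6.60, 6.31, 6.78, 6.74 and 6.77 on the sedentary SAMP8 arrays and 5.84, 6.22, 6.17, 6.00 and 5.80 on the sedentary SAMR1 arrays. The SAMP8 and SAMR1 ranges did not meet, with 3 SAMR1 arrays under the lower quartile. Oas1a differed by 0.64 ± 0.11 between sedentary SAMP8 and sedentary SAMR1 (1.55-fold, adjusted p = 0.00379) and 0.82 ± 0.11 between exercised SAMP8 and sedentary SAMR1 (1.76-fold, adjusted p = 0.000387).

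Oas2, Oas3 and Oasl1 were dim, under the lower quartile on all 5 SAMR1 and all 5 sedentary SAMP8 arrays, and their differences rest on values near the floor. Oas2 was also under it on 4 exercised SAMP8 arrays and read 5.66, 6.53, 5.91, 5.88 and 5.68 on the exercised SAMP8 arrays, 5.96, 5.82, 5.98, 6.17 and 6.08 on the sedentary SAMP8 arrays and 5.82, 5.31, 3.66, 5.11 and 5.55 on the sedentary SAMR1 arrays. Sedentary SAMP8 arrays all lay above SAMR1 arrays, and SAMR1 replicate 3 was the lowest array. The Oas2 differences of 0.91 ± 0.31 between sedentary SAMP8 and sedentary SAMR1 (1.88-fold, adjusted p = 0.158) and 0.84 ± 0.31 between exercised SAMP8 and sedentary SAMR1 (1.79-fold, adjusted p = 0.15) did not pass. Oasl1, which in mouse restrains Irf7 translation, gave 0.25 ± 0.21 and 0.45 ± 0.21, and Oas3 gave 0.06 ± 0.30 and -0.10 ± 0.30 for sedentary and exercised SAMP8 against SAMR1. Near-identical Oas genes may share a feature's signal.

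Isg15 is a ubiquitin-like protein that is attached to other proteins during the response, and Usp18 removes it and also dampens the interferon receptor. Usp18 read 6.81, 7.35, 7.07, 6.59 and 6.98 on the exercised SAMP8 arrays, 6.91, 7.05, 7.19, 6.79 and 6.98 on the sedentary SAMP8 arrays and 6.11, 6.37, 6.71, 6.04 and 6.42 on the sedentary SAMR1 arrays. Sedentary SAMP8 arrays were all above SAMR1, while exercised SAMP8 replicate 14 lay below the highest SAMR1 array. Usp18 rose by 0.65 ± 0.15 between sedentary SAMP8 and sedentary SAMR1 (1.57-fold, adjusted p = 0.0208) and 0.63 ± 0.15 between exercised SAMP8 and sedentary SAMR1 (1.55-fold, adjusted p = 0.0219). The first call ended without sedentary SAMP8 replicate 7 (0.64, 0.0533), sedentary SAMP8 replicate 8 (0.60, 0.0611), sedentary SAMR1 replicate 1 (0.60, 0.0571) or sedentary SAMR1 replicate 4 (0.58, 0.0619), and the second without exercised SAMP8 replicate 13 (0.60, 0.0563), exercised SAMP8 replicate 15 (0.62, 0.0511), sedentary SAMR1 replicate 1 (0.57, 0.0577) or sedentary SAMR1 replicate 4 (0.56, 0.0575). With the 2 groups fitted alone the second also ended (adjusted p = 0.0652).

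Isg15 had 7.35, 7.53, 7.34, 6.77 and 7.13 on the exercised SAMP8 arrays, 7.16, 7.29, 7.49, 7.01 and 7.18 on the sedentary SAMP8 arrays and 6.26, 6.87, 6.92, 6.55 and 6.95 on the sedentary SAMR1 arrays. Again the sedentary SAMP8 arrays were all above SAMR1, and exercised SAMP8 replicate 14 fell inside the SAMR1 range. The Isg15 differences of 0.52 ± 0.16 between sedentary SAMP8 and sedentary SAMR1 (1.43-fold, adjusted p = 0.112) and 0.51 ± 0.16 between exercised SAMP8 and sedentary SAMR1 (1.43-fold, adjusted p = 0.0837) did not pass, but the second did without exercised SAMP8 replicate 14 (0.63, 0.0275).

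**Figure D2:**
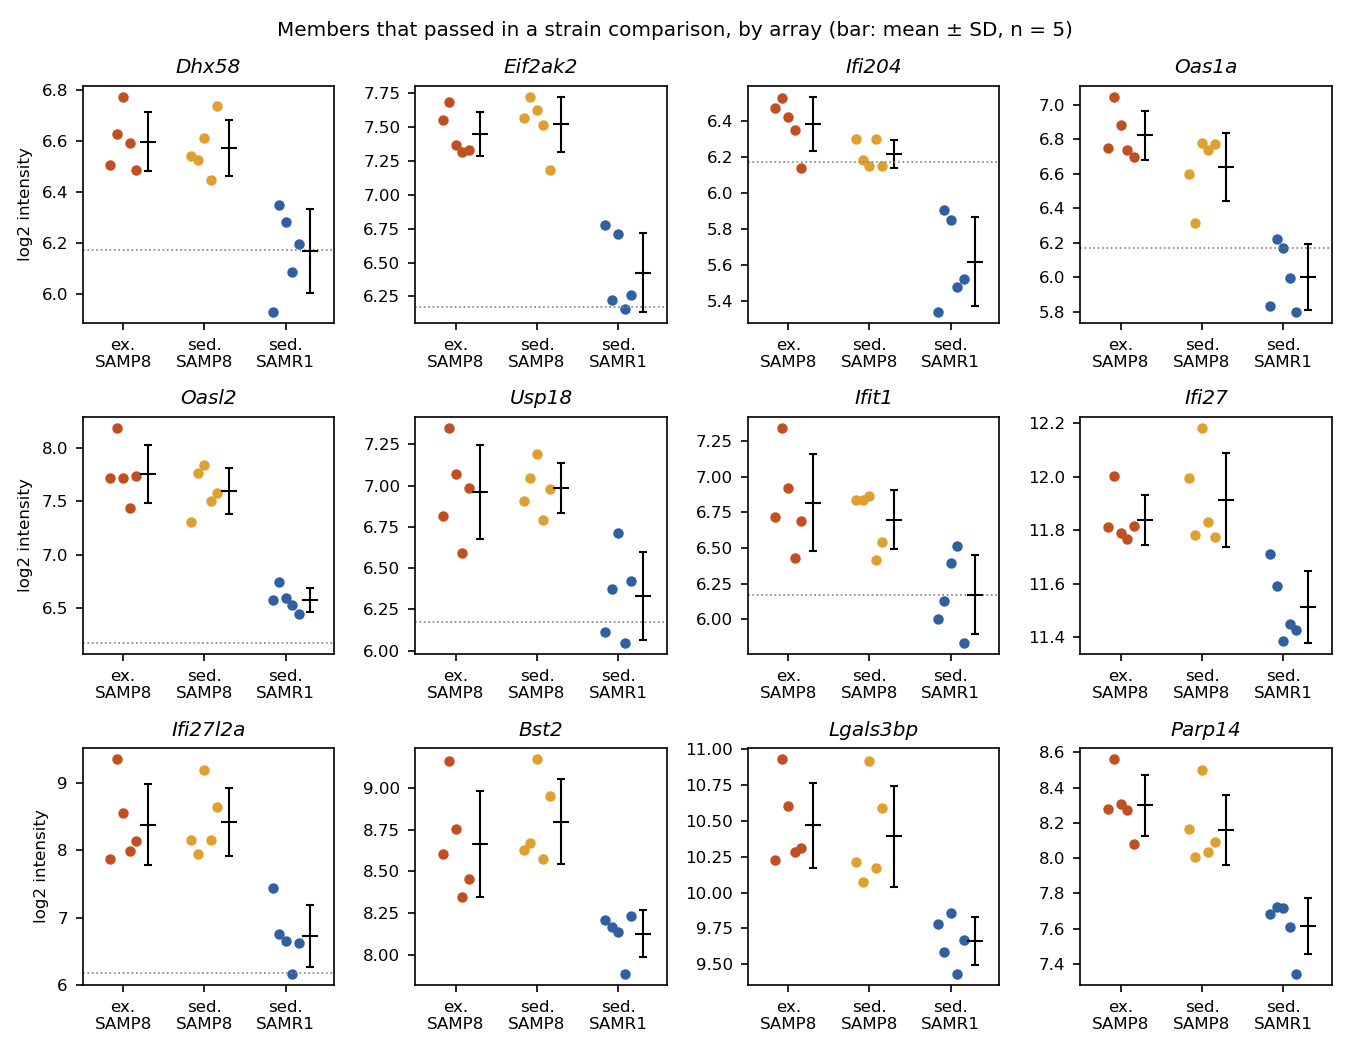
Points are log2 intensity on each array for the 12 members that passed in a strain comparison, in exercised SAMP8 (left), sedentary SAMP8 (middle) and sedentary SAMR1 (right) of each panel, and bars give the mean ± SD of 5 arrays. The dotted line marks the lower quartile of intensity (6.17), and each panel has its own scale. SAMR1 lies below both SAMP8 groups in every panel except Usp18 and Ifit1, where single arrays overlap.

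Among the IFIT proteins, which bind foreign RNA, Ifit1 rose in exercised SAMP8 against SAMR1, and Ifit2 and Ifit3 did not pass. Ifit1 read 6.71, 7.34, 6.92, 6.43 and 6.69 on the exercised SAMP8 arrays, 6.84, 6.83, 6.87, 6.41 and 6.54 on the sedentary SAMP8 arrays and 6.00, 6.13, 6.40, 6.51 and 5.83 on the sedentary SAMR1 arrays. The highest SAMR1 array lay above the lowest array of both SAMP8 groups, and 3 SAMR1 arrays were under the lower quartile. Ifit1 differed by 0.52 ± 0.17 between sedentary SAMP8 and sedentary SAMR1 (1.44-fold, adjusted p = 0.134) and 0.64 ± 0.17 between exercised SAMP8 and sedentary SAMR1 (1.56-fold, adjusted p = 0.0418). Exercised and sedentary SAMP8 themselves differed by 0.12 ± 0.17 (adjusted p = 0.911). Its call ended without exercised SAMP8 replicate 11 (0.67, 0.0622), exercised SAMP8 replicate 12 (0.51, 0.0798), exercised SAMP8 replicate 13 (0.62, 0.092), exercised SAMP8 replicate 15 (0.68, 0.0643), sedentary SAMP8 replicate 6 (0.64, 0.0532), sedentary SAMP8 replicate 7 (0.64, 0.0508), sedentary SAMP8 replicate 10 (0.64, 0.0511), sedentary SAMR1 replicate 1 (0.60, 0.0933), sedentary SAMR1 replicate 2 (0.63, 0.0636) or sedentary SAMR1 replicate 5 (0.56, 0.112), and with the 2 groups fitted alone (0.64, adjusted p = 0.089). Ifit2 gave 0.22 ± 0.15 and 0.19 ± 0.15, and Ifit3 0.12 ± 0.14 and 0.29 ± 0.14, for sedentary and exercised SAMP8 against SAMR1.

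The 3 IFITM proteins, which stop viruses from fusing with cell membranes, did not pass. Ifitm2 came nearest, with 7.62, 7.83, 7.73, 7.81 and 7.88 on the exercised SAMP8 arrays, 7.66, 7.31, 7.90, 7.64 and 7.76 on the sedentary SAMP8 arrays and 7.28, 7.48, 7.44, 7.30 and 7.57 on the sedentary SAMR1 arrays. Its exercised arrays were all above SAMR1 and its sedentary SAMP8 arrays were not. The differences were 0.24 ± 0.10 between sedentary SAMP8 and sedentary SAMR1 (1.18-fold, adjusted p = 0.283) and 0.36 ± 0.10 between exercised SAMP8 and sedentary SAMR1 (1.28-fold, adjusted p = 0.0614). The second passed without sedentary SAMP8 replicate 7 (adjusted p = 0.023) or replicate 8 (adjusted p = 0.048), whose removal changes only the shared spread. It also passed with the dimmest 30% of genes left out (0.36, adjusted p = 0.0368) and with the 2 groups fitted alone (0.36, adjusted p = 0.048). For sedentary and exercised SAMP8 against SAMR1, Ifitm1 gave -0.07 ± 0.14 and -0.10 ± 0.14, and Ifitm3 0.34 ± 0.21 and 0.02 ± 0.21.

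None of the 5 measured interferon-induced GTPases passed in either strain comparison, and their median differences were 0.03 for sedentary and 0.13 for exercised SAMP8. Unadjusted p from limma was under 0.05 in 0 and 2 of them, and in 2345 and 2984 of all 16401 genes. Mx2, a dynamin-like antiviral protein, differed by 0.31 ± 0.15 and 0.33 ± 0.15 for sedentary and exercised SAMP8 against SAMR1. Igtp and Irgm1 gave 0.19 ± 0.11 and -0.01 ± 0.10 between the sedentary strains, and 0.29 ± 0.11 and 0.05 ± 0.10 in exercised SAMP8 against SAMR1. The guanylate-binding proteins Gbp2 and Gbp3, typical targets of gamma interferon, gave 0.03 ± 0.16 and 0.02 ± 0.15 between the sedentary strains, and -0.01 ± 0.16 and 0.13 ± 0.15 for exercised SAMP8.

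The largest difference of all members was in Ifi27l2a, an interferon-induced gene of the small membrane protein family that also holds Ifi27. Ifi27l2a read 7.88, 9.36, 8.56, 7.99 and 8.14 on the exercised SAMP8 arrays, 8.15, 7.95, 9.20, 8.16 and 8.64 on the sedentary SAMP8 arrays and 7.44, 6.76, 6.65, 6.16 and 6.62 on the sedentary SAMR1 arrays. Exercised replicate 12 and sedentary SAMP8 replicate 8 were the highest, and the lowest SAMP8 array still exceeded the highest SAMR1 array. The differences were 1.69 ± 0.30 between sedentary SAMP8 and sedentary SAMR1 (3.23-fold, adjusted p = 0.00404) and 1.66 ± 0.30 between exercised SAMP8 and sedentary SAMR1 (3.16-fold, adjusted p = 0.00455). Its second feature also passed in the fit of single features, at 1.28 (adjusted p = 0.00798) and 1.31 (adjusted p = 0.00632). Both genes lie on chromosome 12, and a near copy, Ifi27l2b, may share signal with Ifi27l2a.

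Ifi27 was bright, with 11.81, 12.00, 11.79, 11.77 and 11.82 on the exercised SAMP8 arrays, 11.99, 11.78, 12.18, 11.83 and 11.78 on the sedentary SAMP8 arrays and 11.71, 11.59, 11.39, 11.45 and 11.43 on the sedentary SAMR1 arrays. All SAMP8 arrays were above all SAMR1 arrays by small margins. Ifi27 differed by 0.40 ± 0.09 between sedentary SAMP8 and sedentary SAMR1 (1.32-fold, adjusted p = 0.0269) and 0.32 ± 0.09 between exercised SAMP8 and sedentary SAMR1 (1.25-fold, adjusted p = 0.0658). The first call ended without sedentary SAMP8 replicate 6 (0.38, 0.0733), sedentary SAMP8 replicate 8 (0.33, 0.0661), sedentary SAMR1 replicate 3 (0.37, 0.0762), sedentary SAMR1 replicate 4 (0.38, 0.0709) or sedentary SAMR1 replicate 5 (0.38, 0.0747), and when the 2 groups were fitted alone (adjusted p = 0.0792). The second passed without sedentary SAMP8 replicate 8 (0.32, 0.0397) or sedentary SAMR1 replicate 1 (0.37, 0.0442). It also passed with the dimmest 30% of genes left out (0.32, adjusted p = 0.0408), with a trended and robust prior (0.32, adjusted p = 0.0396), with array weights (0.35, adjusted p = 0.0439) and with 50 added to each intensity (0.32, adjusted p = 0.0496).

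Bst2, the tetherin that holds budding viruses at the cell surface, read 8.60, 9.16, 8.75, 8.34 and 8.45 on the exercised SAMP8 arrays, 8.63, 8.67, 9.17, 8.57 and 8.95 on the sedentary SAMP8 arrays and 8.21, 8.16, 8.13, 7.88 and 8.23 on the sedentary SAMR1 arrays. All SAMP8 arrays lay above all SAMR1 arrays. The differences were 0.67 ± 0.15 between sedentary SAMP8 and sedentary SAMR1 (1.59-fold, adjusted p = 0.0206) and 0.54 ± 0.15 between exercised SAMP8 and sedentary SAMR1 (1.45-fold, adjusted p = 0.058). The call between the sedentary strains ended without sedentary SAMP8 replicate 8 (0.58, 0.0551), sedentary SAMP8 replicate 10 (0.64, 0.0526) or sedentary SAMR1 replicate 4 (0.61, 0.0619). The exercised comparison passed without exercised SAMP8 replicate 14 (0.62, 0.0372) or sedentary SAMP8 replicate 8 (0.54, 0.0422). It also passed with the dimmest 30% of genes left out (0.54, adjusted p = 0.0332), with a trended and robust prior (0.54, adjusted p = 0.0315), with array weights (0.59, adjusted p = 0.0415) and with 50 added to each intensity (0.47, adjusted p = 0.0443).

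Lgals3bp, a secreted glycoprotein that binds galectins, had 10.23, 10.93, 10.60, 10.28 and 10.31 on the exercised SAMP8 arrays, 10.21, 10.08, 10.92, 10.17 and 10.59 on the sedentary SAMP8 arrays and 9.78, 9.58, 9.86, 9.43 and 9.67 on the sedentary SAMR1 arrays. No SAMP8 array reached the SAMR1 range, and the highest of each SAMP8 group were again replicates 12 and 8. Lgals3bp rose by 0.73 ± 0.17 between sedentary SAMP8 and sedentary SAMR1 (1.66-fold, adjusted p = 0.0246) and 0.81 ± 0.17 between exercised SAMP8 and sedentary SAMR1 (1.75-fold, adjusted p = 0.0115). The first call ended without sedentary SAMP8 replicate 8 (0.60, 0.0544), sedentary SAMP8 replicate 10 (0.68, 0.0626), sedentary SAMR1 replicate 2 (0.71, 0.053), sedentary SAMR1 replicate 4 (0.67, 0.072) or sedentary SAMR1 replicate 5 (0.73, 0.0564). The second kept its side of the threshold under every alternative run.

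Parp14, a mono-ADP-ribosyltransferase of macrophages and other cells, read 8.28, 8.56, 8.31, 8.27 and 8.08 on the exercised SAMP8 arrays, 8.17, 8.01, 8.50, 8.04 and 8.09 on the sedentary SAMP8 arrays and 7.68, 7.73, 7.72, 7.61 and 7.34 on the sedentary SAMR1 arrays. The SAMP8 and SAMR1 ranges were apart. Its differences were 0.55 ± 0.11 between sedentary SAMP8 and sedentary SAMR1 (1.46-fold, adjusted p = 0.0126) and 0.68 ± 0.11 between exercised SAMP8 and sedentary SAMR1 (1.61-fold, adjusted p = 0.00193). Its dimmer features gave 0.27 and -0.21 between the sedentary strains and -0.25 and 0.08 for exercised SAMP8 against SAMR1, and with the mean of the 3 features neither call remained (0.20, adjusted p = 0.723, and 0.17, adjusted p = 0.748).

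Rsad2, Rtp4 and Ifi35 came close to the threshold, and Xaf1 did not. Rsad2, the radical enzyme viperin that makes a chain-terminating nucleotide, read 6.75, 7.27, 7.27, 6.49 and 7.12 on the exercised SAMP8 arrays, 7.02, 6.72, 6.87, 6.91 and 6.82 on the sedentary SAMP8 arrays and 6.40, 6.00, 6.65, 6.44 and 6.65 on the sedentary SAMR1 arrays. Sedentary SAMP8 arrays were all above SAMR1 arrays, but exercised replicate 14 was not. Its differences were 0.44 ± 0.16 between sedentary SAMP8 and sedentary SAMR1 (1.36-fold, adjusted p = 0.186) and 0.55 ± 0.16 between exercised SAMP8 and sedentary SAMR1 (1.47-fold, adjusted p = 0.062). Rtp4, a receptor-transporting protein induced by interferon, had 9.04, 9.39, 9.30, 8.77 and 9.40 on the exercised SAMP8 arrays, 9.13, 9.00, 9.62, 8.77 and 9.21 on the sedentary SAMP8 arrays and 8.56, 8.62, 8.77, 8.78 and 8.60 on the sedentary SAMR1 arrays. Its highest SAMR1 arrays overlapped the lowest SAMP8 arrays. Rtp4 gave 0.48 ± 0.15 between sedentary SAMP8 and sedentary SAMR1 (1.39-fold, adjusted p = 0.125) and 0.51 ± 0.15 between exercised SAMP8 and sedentary SAMR1 (1.43-fold, adjusted p = 0.069). Ifi35, an interferon-induced leucine zipper protein, read 7.15, 7.37, 7.50, 6.84 and 7.28 on the exercised SAMP8 arrays, 7.44, 7.31, 7.39, 7.39 and 7.47 on the sedentary SAMP8 arrays and 6.73, 7.14, 7.08, 6.87 and 7.03 on the sedentary SAMR1 arrays. Only the sedentary SAMP8 arrays were all above SAMR1. Ifi35 gave 0.43 ± 0.11 between sedentary SAMP8 and sedentary SAMR1 (1.35-fold, adjusted p = 0.0563) and 0.25 ± 0.11 between exercised SAMP8 and sedentary SAMR1 (1.19-fold, adjusted p = 0.246), and its first difference passed without exercised SAMP8 replicate 13 (0.43, 0.0414), exercised SAMP8 replicate 14 (0.43, 0.0176) or sedentary SAMR1 replicate 2 (0.47, 0.0468), and with the dimmest 30% of genes left out (0.43, adjusted p = 0.0329), with array weights (0.43, adjusted p = 0.0484) and with the 2 groups fitted alone (0.43, adjusted p = 0.0319). Without exercised SAMP8 replicate 14, the exercised differences of Rsad2 (0.68, 0.0145) and Rtp4 (0.61, 0.0266) passed, and Rtp4 also did without sedentary SAMP8 replicate 8 (0.0325). The exercised difference of Rsad2 also passed with a trended and robust prior (0.55, adjusted p = 0.047), and that of Rtp4 with the dimmest 30% of genes left out (0.51, adjusted p = 0.04), with a trended and robust prior (0.51, adjusted p = 0.0377) and with 50 added to each intensity (0.46, adjusted p = 0.0496). Xaf1, a pro-apoptotic factor, gave -0.03 ± 0.12 and -0.02 ± 0.12 for sedentary and exercised SAMP8 against SAMR1.

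**Figure D3:**
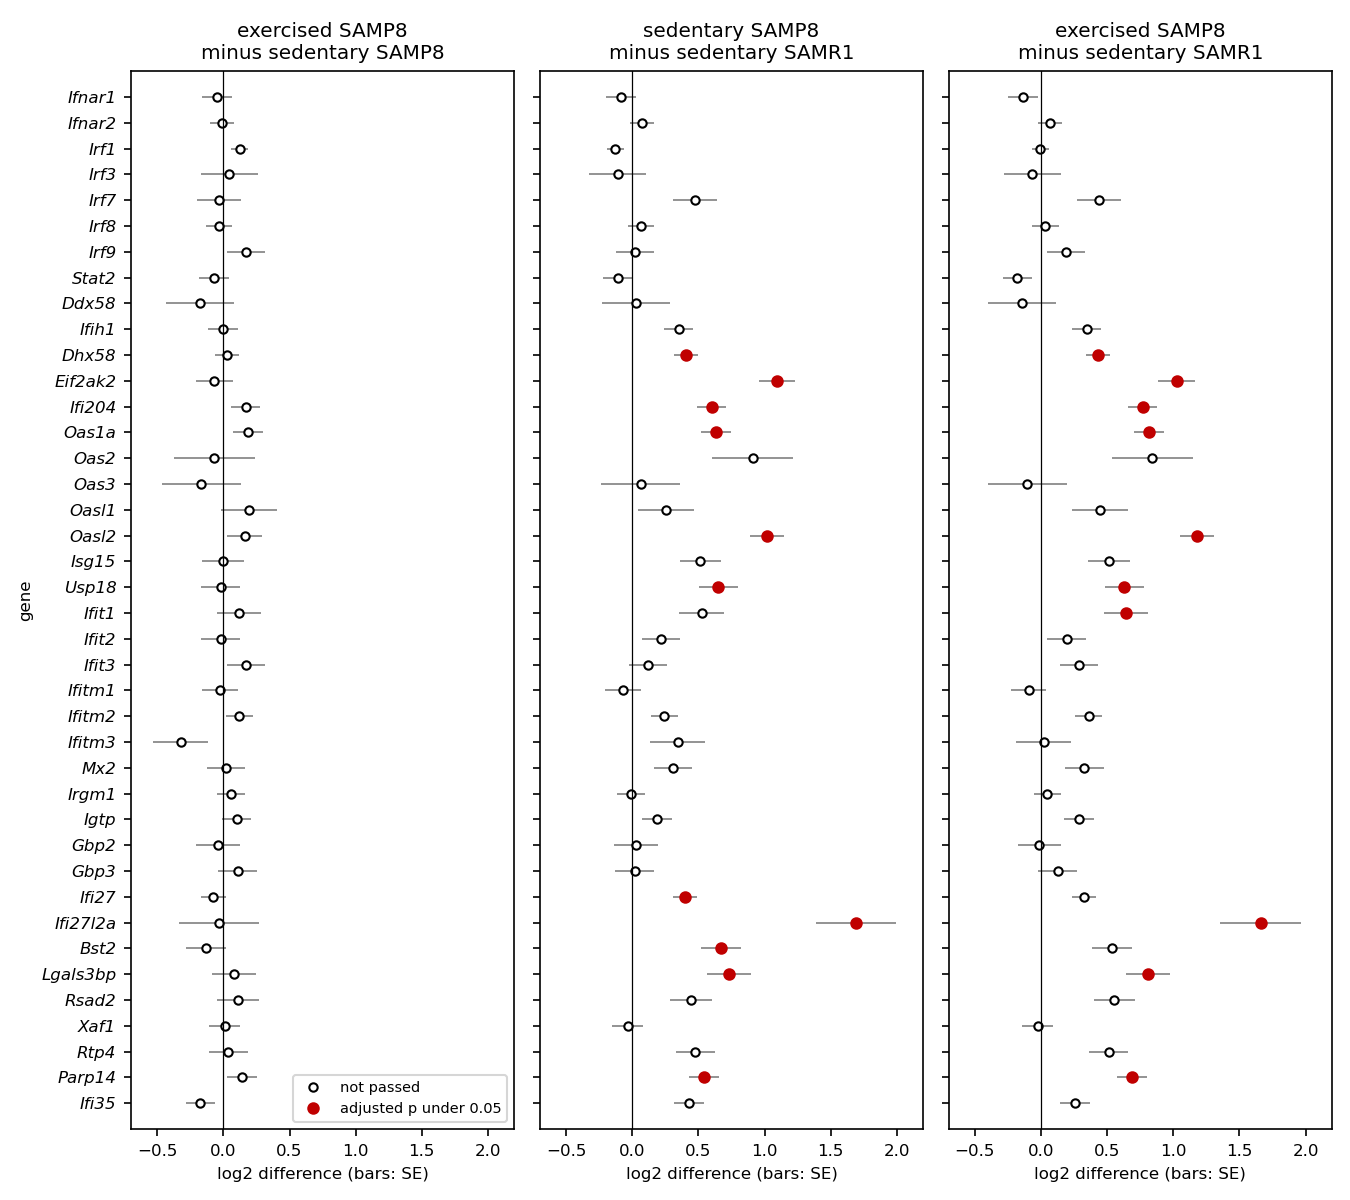
Points are log2 differences of the 40 members with standard errors as bars, for exercised minus sedentary SAMP8 (left), sedentary SAMP8 minus sedentary SAMR1 (middle) and exercised SAMP8 minus sedentary SAMR1 (right). Filled points passed an adjusted p of 0.05 in limma: 0 at the left, 11 in the middle and 10 at the right.

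Exercise moved no member past the threshold. In simulated data, this comparison recovered 35% of changes of 0.5 and 90% of changes of 1, so a change near 0.5 could be missed. In exercised against sedentary SAMP8, 0 of 40 members passed and 0 had an unadjusted p under 0.05, while over all genes 0.0% passed in each direction and 1162 of 16401 had an unadjusted p under 0.05. Each of the 10 other settings, limma with array weights and with a trended prior among them, and each fit with 1 array left out also called 0 members. Of the 40 differences, 20 were positive and 20 negative, the median was 0.00 against 0.02 over all genes, and 39 were under 0.3 in size. Irf1 had the smallest p. All exercised values were above all sedentary values, which occurred in 1 member and 0.732% of all genes, and the reverse in 0 members and 0.366% of all genes. The Irf1 difference was 0.12 ± 0.06 (adjusted p = 0.72), and its second feature gave 0.04.

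The next smallest p-values belonged to Oas1a, Ifitm3, Ifi35 and Ifi204. Oas1a differed by 0.18 ± 0.11 (adjusted p = 0.759) and Ifi204 by 0.17 ± 0.11 (adjusted p = 0.769). Ifitm3 gave -0.32 ± 0.21 (adjusted p = 0.764), from values of 9.29, 10.36, 9.62, 9.52 and 10.24 in exercised and 10.24, 10.29, 9.84, 10.13 and 10.14 in sedentary SAMP8, which overlapped (SAMR1 arrays read 9.86, 9.63, 9.92, 10.25 and 9.27). Ifi35 gave -0.17 ± 0.11 (adjusted p = 0.764), with overlapping groups as well. For the members with the largest strain differences, the 95% interval of the exercise difference was -0.68 to 0.61 in Ifi27l2a, -0.36 to 0.23 in Eif2ak2 and -0.12 to 0.44 in Oasl2. For Ifi27l2a, Eif2ak2 and Oasl2 these intervals lie within the size of the differences between the sedentary strains, 1.69, 1.09 and 1.02.

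Within each SAMP8 group a single array held most of the highest values. Exercised replicate 12 was highest of its group in 24 of 40 members and sedentary SAMP8 replicate 8 in 21, while exercised replicate 14 was lowest in 20 and sedentary replicate 9 in 18. The mean over members of the deviation from the gene mean ran over -0.09 to 0.38 in exercised SAMP8, -0.01 to 0.27 in sedentary SAMP8 and -0.34 to -0.15 in SAMR1. Over the 28 members not called in a strain comparison it ran over -0.16 to 0.27, -0.07 to 0.17 and -0.21 to -0.05 in the same order of groups. With replicates 12 and 8 both left out, an alternative chosen after seeing the data, 9 members rose between the sedentary strains, 8 rose in exercised SAMP8 against SAMR1, and 0 differed with exercise. Without sedentary SAMP8 replicate 8 alone, or without SAMR1 replicate 4, 6 members rose between the sedentary strains.

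Some markers of cells at the brain's borders were called in the strain comparisons. Over all genes, 54.4% of differences were positive in sedentary and 58.6% in exercised SAMP8 against SAMR1. In the same order, 1.85% and 2.8% of all genes rose, and 1.18% and 1.45% fell. All 8 measured markers of border macrophages had positive differences in both strain comparisons, and 3 rose in sedentary SAMP8 (Cd163, F13a1 and Ms4a7) and 2 in exercised SAMP8. Their summed linear intensity was 1258 to 1732 in exercised SAMP8, 1367 to 2177 in sedentary SAMP8 and 988 to 1208 in SAMR1. Meningeal fibroblast markers were positive in 14 and 13 of 15, with 1 (Lum) higher in sedentary SAMP8 and 4 (Lum, Dcn, Col1a1 and Slc13a4) in exercised SAMP8, and summed to 27346 to 40046 in exercised SAMP8, 31775 to 43666 in sedentary SAMP8 and 24360 to 45043 in SAMR1. Choroid plexus markers were positive in 10 and 8 of 10, with 1 (Aqp1) higher in each comparison, and summed to 1019 to 4005 in exercised SAMP8, 1255 to 4377 in sedentary SAMP8 and 756 to 2947 in SAMR1. The summed levels of the meningeal and choroid plexus lists overlapped between SAMR1 and both SAMP8 groups. A linear sum is weighted to bright genes. Ptgds, the brightest meningeal marker, averaged 14.29 in exercised SAMP8, 14.46 in sedentary SAMP8 and 14.58 in SAMR1. With each meningeal marker weighted alike, the mean deviation ran over -0.005 to 0.31, -0.028 to 0.37 and -0.58 to -0.027 in the same order of groups. The choroid plexus deviation was 0.88 on exercised replicate 12 and 1.04 on sedentary SAMP8 replicate 8, the highest of each group, and the meningeal deviation was also highest there (0.31 and 0.37). Choroid plexus also read 0.76 on exercised replicate 11 and 0.45 on SAMR1 replicate 1, where the member deviations were 0.05 and -0.21. The border macrophage deviation was highest on other arrays, exercised replicate 13 (0.42) and sedentary SAMP8 replicate 7 (0.32). On replicates 12 and 8 it was 0.21 and 0.23. The part of these cells in the interferon differences was not tested.

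Microglial markers were positive in 9 of 14 in each strain comparison, with 0 called in sedentary SAMP8 and 1 (Aif1) in exercised SAMP8, and summed to 13129 to 16708 in exercised SAMP8, 14043 to 15970 in sedentary SAMP8 and 11791 to 15662 in SAMR1. Endothelial markers had 1 higher and 1 lower of 15 in each comparison, and summed to 12281 to 14688 in exercised SAMP8, 12803 to 16334 in sedentary SAMP8 and 12136 to 16999 in SAMR1. Mural cell markers rose in 1 and 2 of 9 and summed to 9748 to 12597 in exercised SAMP8, 11008 to 14436 in sedentary SAMP8 and 9516 to 11558 in SAMR1. Of 9 T and NK cell, 6 B and plasma cell, 6 neutrophil and monocyte and 5 blood markers, 0 passed in either comparison, and 3, 2, 1 and 0 of them lay under the lower quartile on all arrays. Blood markers were positive in 5 of 5 in both strain comparisons, with medians of 0.29 in sedentary and 0.30 in exercised SAMP8. Of 9 astrocyte markers 1 (Gfap) rose in sedentary SAMP8 and 0 in exercised SAMP8, of 5 ependymal markers 0 and 1 rose, and of 8 oligodendrocyte and 11 neuron markers 0 passed. Oligodendrocyte markers were positive in 1 of 8 in sedentary and 0 of 8 in exercised SAMP8, with medians of -0.09 and -0.21. Every intensity used was above 0, so no marker could read 0 and this says nothing about detection.

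**Figure D4:**
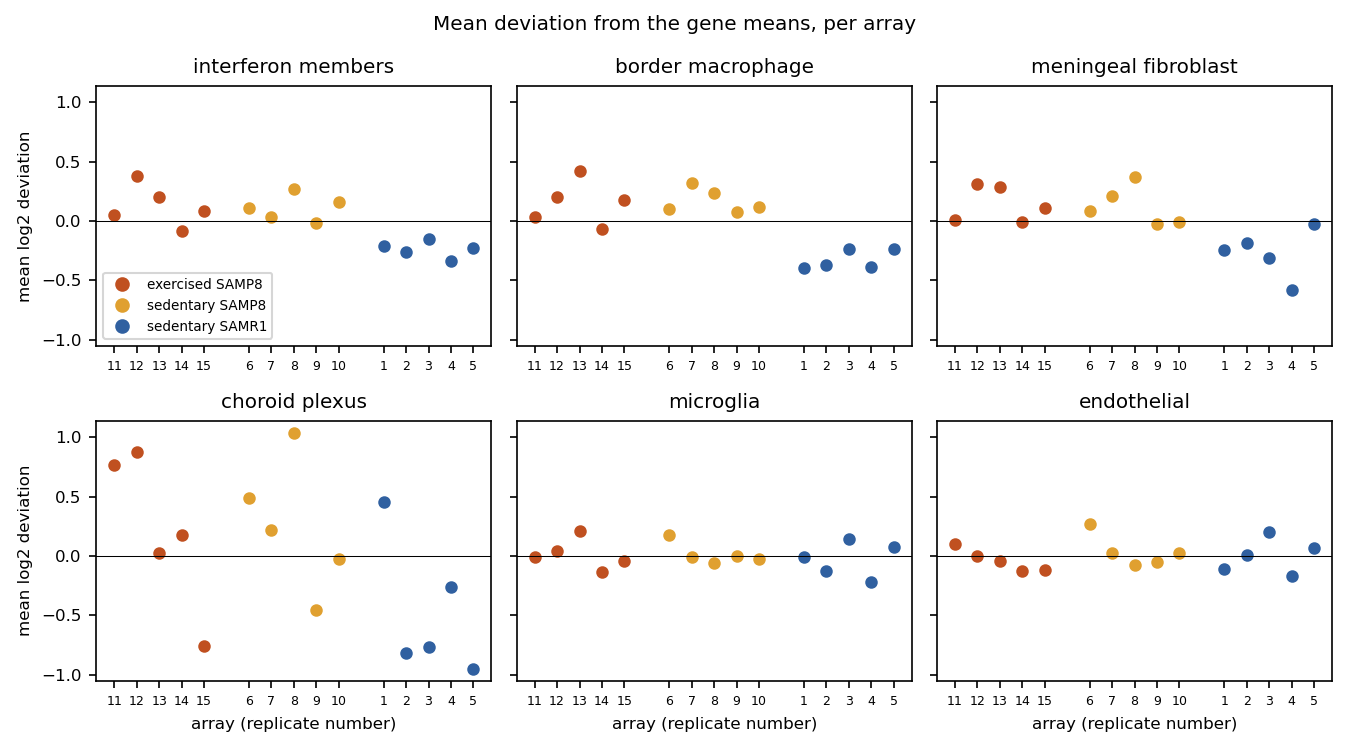
Each point is 1 array, and the vertical axis is the mean over a list of log2 intensity minus the gene mean, for the 40 interferon members and for markers of 5 cell types. Replicates 11 to 15 are exercised SAMP8, 6 to 10 sedentary SAMP8 and 1 to 5 sedentary SAMR1. The members and the border macrophage markers are lowest in SAMR1, microglial and endothelial markers overlap between groups, and choroid plexus markers spread over the widest range of the lists drawn.

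The other genes of the pathway, listed by role and 120 of 157 measured, held 4 calls in each strain comparison. Between sedentary SAMP8 and SAMR1, 3 rose and 1 fell, where 1.85% of all genes rose and 1.18% fell, with a median of 0.04, and in exercised SAMP8 against SAMR1 again 3 rose and 1 fell, where 2.8% of all genes rose and 1.45% fell, with a median of 0.04. These counts in 120 genes were near the shares of all genes and are no result about the list. Oas1f, another oligoadenylate synthetase gene, rose by 0.65 ± 0.14 in sedentary SAMP8 (adjusted p = 0.014) and 0.73 ± 0.14 in exercised SAMP8 (adjusted p = 0.00544). Plscr2, of the phospholipid scramblase family, was lower in both, at -0.66 ± 0.10 in sedentary SAMP8 (adjusted p = 0.00141) and -0.70 ± 0.10 in exercised SAMP8 (adjusted p = 0.000741). Cmpk2, a mitochondrial nucleotide kinase encoded beside Rsad2, rose by 0.46 ± 0.11 in sedentary SAMP8 (adjusted p = 0.0333) and gave 0.38 ± 0.11 in exercised SAMP8 (adjusted p = 0.0726). Trim30a, a TRIM-family protein, rose by 0.63 ± 0.14 in sedentary SAMP8 (adjusted p = 0.0161) and gave 0.46 ± 0.14 in exercised SAMP8 (adjusted p = 0.0728). In exercised SAMP8 Lgals9, a galectin, rose by 0.70 ± 0.19 (adjusted p = 0.0464) and Shisa5, a membrane protein linked to apoptosis, by 0.44 ± 0.11 (adjusted p = 0.0379). In sedentary SAMP8 they gave 0.57 ± 0.19 and 0.16 ± 0.11, which did not pass.

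No interferon gene passed in a strain comparison. Of 9 interferon genes measured, 8 of them type I and 1 (Ifng) type II, 0 passed and 0 had an unadjusted p under 0.05 in a strain comparison. Ifnb1 was not measured. Group means ran between 5.05 and 7.15, all under the median intensity and in part under the lower quartile of 6.17, near the floor. Their differences were negative in 9 of 9 between the sedentary strains (median -0.19), negative in 5 and positive in 4 for exercised SAMP8 against SAMR1 (median 0.00) and positive in 8 of 9 with exercise (median 0.13). Over all genes, 54.4%, 58.6% and 55.4% of differences were positive in the same order. The comparison of the sedentary strains and that of exercise share the sedentary SAMP8 arrays, so their signs are not independent. Receptors and Janus kinases (7), other STAT and IRF factors (5), negative regulators (8) and nucleic acid sensing genes (17) held 0 calls in either strain comparison. With exercise 0 of the 120 passed and 9 had an unadjusted p under 0.05. The smallest p-values there were those of Stat3 (-0.34 ± 0.11, adjusted p = 0.59), Ifitm6 (-0.94 ± 0.33, adjusted p = 0.618) and Shisa5 (0.28 ± 0.11, adjusted p = 0.67).

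Features of the same gene did not always move together. Of the 16 members with several features, the sign of another feature differed from the brightest in sedentary SAMP8 against SAMR1 for Ifnar2, Irf1, Irf9, Ifih1, Ifi204, Ifit2, Irgm1 and Parp14, and in exercised SAMP8 against SAMR1 for Ifnar2, Irf1, Irf9, Ddx58, Ifi204, Oas3 and Parp14. None of the features of opposite sign passed on its own. With the dimmest 30% of genes left out, 12 members were no longer tested, 5 of them called in either strain comparison: Dhx58, Ifi204, Ifit1, Oas1a and Usp18.

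**Figure D5:**
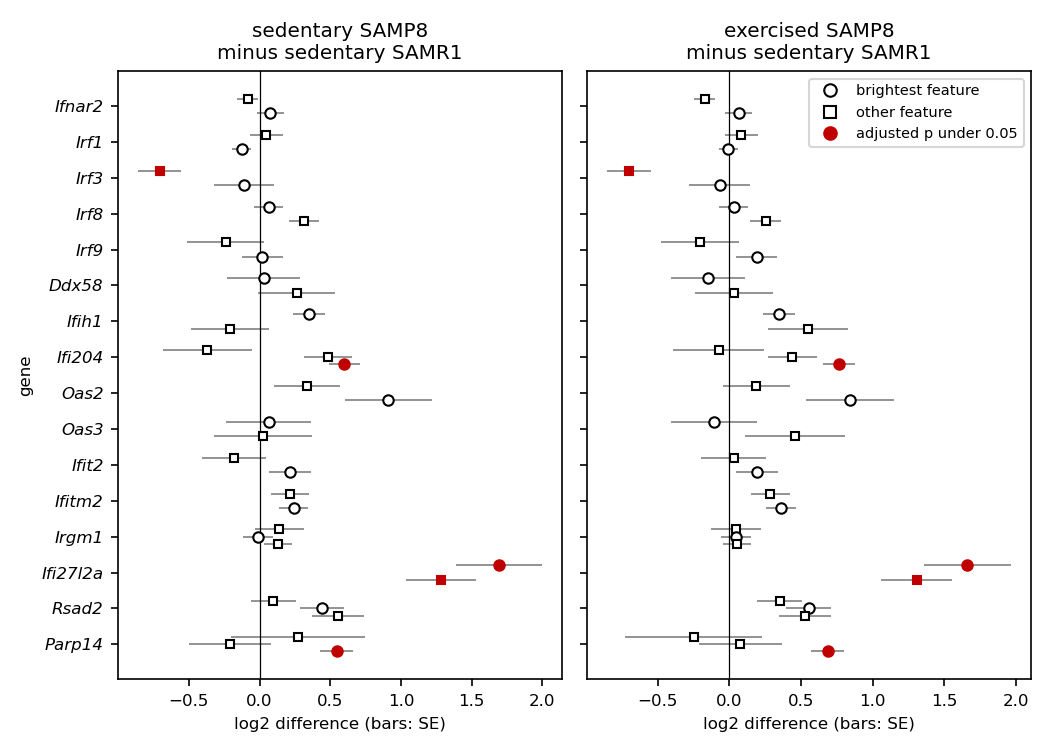
Log2 differences with standard errors for every feature of the 16 members that have several, for sedentary SAMP8 minus sedentary SAMR1 (left) and exercised SAMP8 minus sedentary SAMR1 (right), each feature fitted on its own. Circles are the brightest feature of a gene, squares the others, and filled symbols passed an adjusted p of 0.05. Both Ifi27l2a features are higher in SAMP8, and the second Irf3 feature is lower.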

How the data were processed

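Cortex RNA of 15 mouse samples was measured on one-colour Cy3 arrays. The deposited values were spot intensity on a linear scale, and limma was used upstream per the submitters' processing notes, with no version or step named. How background and differences between arrays were treated, which slide or scan an array came from, and any detection calls or build were not given in the sources used here. Slide and scan were thus not tested. After sorting, the columns lay within 0.05 (log2) of each other at 96.2% of ranks, so the values were taken as normalized between arrays. Of 45220 features, 34479 had values. Of these, 27968 had 1 gene symbol in the platform annotation, 38 had several and 6473 had none.

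Intensities were put on a log2 scale without a pseudocount, and the feature brightest on average stood for each of 16401 genes. limma 3.58.1 in R 4.3.3 (lmFit and eBayes) was fitted to all 15 arrays in 3 groups, two-sided, with Benjamini-Hochberg adjustment over all genes and a threshold of 0.05. The steps were tested on simulated data of 16401 genes, with 100 genes changed at each of 2 sizes, 0.5 and 1 (log2). Of changes of 0.5, 35% were recovered for exercised against sedentary SAMP8, 41% between the sedentary strains and 48% for exercised SAMP8 against SAMR1. Of changes of 1, 90%, 80% and 86% were recovered in the same order, with 7, 10 and 5 false calls. Most changes of 0.5 were thus missed. The number of arrays limits the precision, and limma's standard error had a median of 0.121 over genes. Fold changes are 2 to the power of the log2 difference. Alternatives were the mean of all features, every feature fitted on its own, quantile normalization, median centring, the dimmest 30% left out, a trended and robust prior, array weights, only the 2 groups compared, 50 added to each intensity, and each array left out.

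The members and lists were chosen with earlier results of these data known. All members are described by role, those that passed in any comparison with values on every array, as are the receptors and transcription factors and the 5 members per comparison with the smallest p among the rest. Of the other pathway genes, those that passed are named, or the 3 with the smallest p where none passed. Promoter sequences come from RefSeq (GRCm38.p6). That assembly was otherwise used for gene names and chromosomes only.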

Additional observations from a re-analysis of the deposited data

Results flagged for a closer look

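In 120 sets of 5 arrays (40 members in 3 groups), the highest or lowest array was examined for its gap to the nearest of the other arrays, as a share of the whole range. The gap passed Dixon's 95% critical value of 0.71 in 5 sets of the 120. Chance gives about 1 in 20, so this count is no larger than chance alone would give. Exercised SAMP8 replicate 15 had the lowest Ddx58 value, 5.48, where the other exercised arrays read 6.86 to 7.21. Exercised SAMP8 replicate 14 had the lowest Oas3 value, 3.85, where the others read 5.45 to 5.87. Exercised SAMP8 replicate 12 had the highest Oas2 value, 6.53, where the others read 5.66 to 5.91. The same array had the highest Ifi27 value, 12.0, where the others read 11.77 to 11.82. SAMR1 replicate 4 had the lowest Bst2 value, 7.88, where the others read 8.13 to 8.23, and Bst2 no longer passed between the sedentary strains without that array (0.61, adjusted p = 0.0619). The causes of these gaps were not tested.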

How the results depend on the processing

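No paired analysis was possible because the groups share no replicate numbers. Between the sedentary strains, 6 to 12 members passed when 1 array was left out, with 6 without sedentary SAMP8 replicate 8 or SAMR1 replicate 4. For exercised SAMP8 against SAMR1 the range was 8 to 15, with 15 without exercised SAMP8 replicate 14. Other settings gave 8 to 12 and 8 to 14 members, all higher except the second Irf3 feature. Of the called members, 4 of 11 (Eif2ak2, Oas1a, Oasl2 and Ifi27l2a) and 6 of 10 (Dhx58, Eif2ak2, Oas1a, Oasl2, Ifi27l2a and Lgals3bp) passed under every alternative that tested them. Of the other pathway genes, 2 passed between the sedentary strains with the dimmest 30% of genes left out (fewer genes tested), and 3 to 7 with 1 array left out, 7 without exercised SAMP8 replicate 14. For exercised SAMP8 against SAMR1 that range was 2 to 6, with 2 without exercised SAMP8 replicate 13 or SAMR1 replicate 1, 4 or 5, and 6 without exercised SAMP8 replicate 14. With exercise, 0 members and 0 other pathway genes passed under any alternative run. Where every feature was fitted on its own, each gene was counted by its feature with the smallest p. Counted so, no called difference changed sign, while 150 of 2448 recomputed values of members that had not passed did. Dimmer features of the called members Ifi204 and Parp14 had the opposite sign and did not enter this check on their own. Without detection calls, dim members cannot be told from background.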
